A study of Homo sapiens with 4 samples.

Results

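Fibronectin, collagen and laminin chains, elastic fibre proteins and the enzymes that crosslink them form the bulk of what an adherent cell secretes around itself, and 43 such genes were followed in cells exposed to the topoisomerase II inhibitor merbarone. The genes were chosen by name for their place in the matrix, by a rule that uses no measured value but with earlier results of these data known, and all 43 are among the 23459 genes listed. A CPM (counts of a gene scaled to a common library total) above 1 in at least 2 libraries was reached by 38 of the 43, and by 12559 genes in all. The other 5, COL1A2, COL5A1, COL6A2, FBLN1 and LAMA3, are given by their counts.

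The cells were hTERT RPE-1, a wild type human line of retinal pigment epithelial origin kept in culture by the catalytic subunit of telomerase. They were held for 48 h in medium with 0.1% FBS (fetal bovine serum), which stops them cycling, and then given 200 μM merbarone, which blocks the catalytic cycle of topoisomerase II. RNA was collected after 4 h in 2 cultures and after 8 h in 2 cultures, so the question the design can answer is which matrix transcripts differed between the earlier and the later time. Every group was starved and treated, so length of exposure and length of starvation cannot be told apart, and cells without merbarone were not analysed here.

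Fibronectin is secreted as a dimer and pulled by integrins into fibrils on which collagens are laid down. Basement membranes, on which the pigment epithelium of the eye rests, join a laminin network to a collagen IV network through nidogens, perlecan and agrin. Lysyl hydroxylases modify collagen chains inside the cell, lysyl oxidases then crosslink collagen and elastin outside it, and fibrillins form the microfibrils that guide elastin.

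Counts per library lay between 8064450 and 10324697. The replicates differed by more than sampling of reads alone, with a chi-square of 2.67 per degree of freedom at 4 h and 3.84 at 8 h. The labelled cell type was checked against its markers. Of 13 markers of retinal pigment epithelium, 6 passed the filter, among them MITF (669 to 882 counts per library), OTX2 (132 to 193) and KRT8 (3042 to 3966). Markers of the mature visual cycle and pigment were at or near 0, with RPE65 between 2 and 7 counts and TYR at 0 in all 4 libraries. All 7 mesenchymal markers passed, with a summed level of 13662 to 17336 CPM. None of 5 leukocyte markers, PTPRC among them, passed, and together they gave between 0.662 and 1.39 CPM. KDR was the only one of 5 endothelial markers that passed, and the 5 together gave 5.01 to 8.14 CPM. Between the times KRT18 fell by 0.51 and KDR by 0.88 on the log2 scale and VIM rose by 0.36 (edgeR adjusted p = 3.72e-05, 0.0083 and 0.000623), and their part in the results was not tested. In such bulk RNA, fewer cells of a kind and less RNA per cell cannot be told apart.

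Of the 38 matrix genes tested, 19 were higher and 2 were lower at 8 h (edgeR, adjusted p below 0.05 over all genes), and 17 were not called. Of all genes tested, 19.9% were higher. The 2 lower genes, COL1A1 and COL4A5, stand beside 18.8% of all genes lower. Changes were modest, with fold changes between 0.575 and 1.74. None of the 38 passed the 2-fold threshold, which 5.33% of all genes did, and none did so at an unadjusted p under 0.05, in Limma-Voom or in DESeq2. The median log2FC (log2 fold change, 8 h against 4 h) was 0.25 for the matrix genes and 0.00 for all genes. In 28 of the 38, both 8 h libraries lay above both 4 h libraries, as they did for 34.8% of all genes. That share is not matched for level. In 4 of the 38 both 8 h libraries lay below, and the share of all genes below was not counted.

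Part of this background depends on level, because the log2FC of all genes rose with their abundance. In 20 bins of equal size by level, the median log2FC went from -0.25 at a mean of 1.23 CPM to 0.17 at a mean of 426 CPM. Matrix genes were abundant, with a median mean CPM of 192 against 30.4 for all genes. Among genes with a mean of at least 100 CPM, 14 of 22 matrix genes were higher, and 40.2% of all 2180 such genes were. None of these 22 matrix genes was lower, while 14.8% of all genes at that level were. Under 100 CPM, 5 of 16 matrix genes were higher and 2 lower, and of all 10379 genes there 15.6% were higher and 2045 lower. When each library was corrected for its trend with mean log2-CPM, 11 matrix genes were higher and 3 lower, and the median log2FC of the 38 was 0.15. In that fit 18.2% of all genes were higher and 2316 of 12559 lower. These 11, namely AGRN, BGN, COL12A1, COL18A1, EFEMP1, FBN2, HSPG2, LAMA5, LOX, PLOD3 and TNC, were called higher in the main fit and under all 9 alternatives and 4 omissions of a library, and COL1A1 was lower in all of them.

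**Figure D1:**
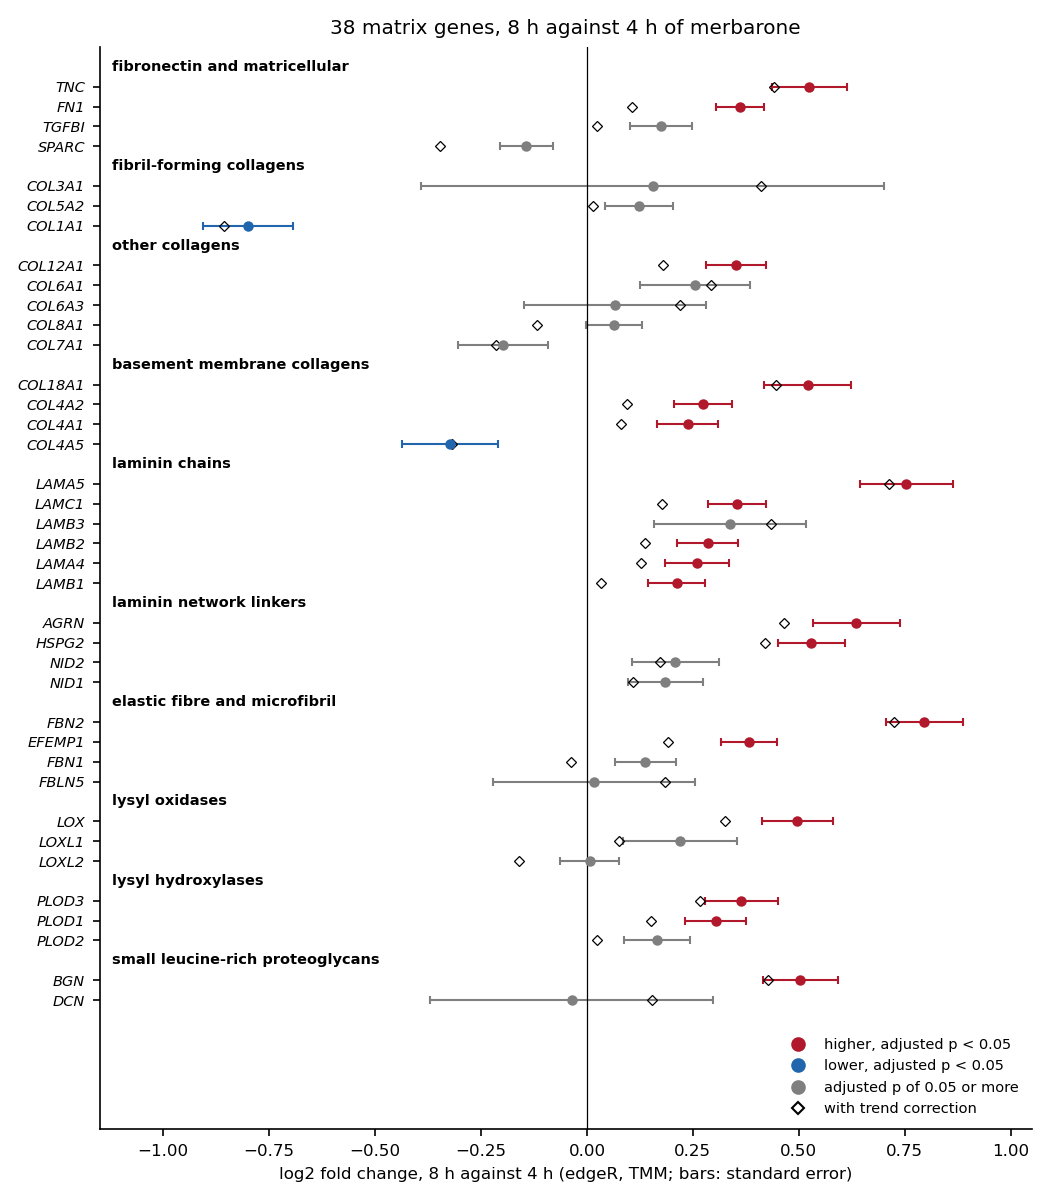
Log2 fold change of the 38 tested matrix genes, 8 h against 4 h, grouped by role. Points are from edgeR after TMM normalization, with standard error bars derived from its F test. Open diamonds are values after correction for the trend with level. In the TMM fit 19 genes are called higher and 2 lower, and after the correction the diamonds of FN1, COL4A1, COL4A2 and LAMB1 lie near 0 while those of FBN2, LAMA5 and COL1A1 move little.

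**Figure D2:**
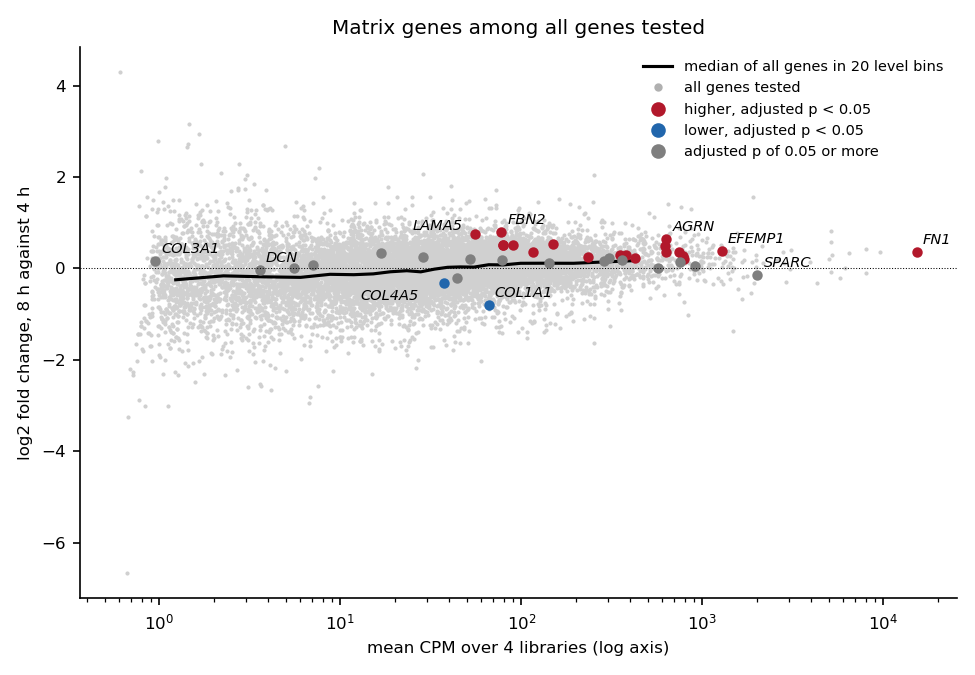
Log2 fold change of all 12559 genes tested (pale points) against their mean CPM over the 4 libraries on a log axis, with the matrix genes as large points coloured by call. The black line, the median of all genes in 20 bins by level, climbs from -0.25 to 0.17, and FN1 lies at the far right of the plot.

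The sequence upstream of 5 of these genes is shown because they span the results: FN1 is the most abundant transcript, FBN2 and LAMA5 have the largest rises, and COL4A1 with COL4A2 is a divergent pair. Sequences are those of the RefSeq promoter table on GRCh38.p14, which holds 33 of the 43 matrix genes. They end at the base before the transcription start, and capitals mark GGGCGG (the core of a GC box), CCAAT and TGACGTCA (a cAMP response element) on either strand. The FN1 stretch is chr2:215436069-215436318 on the minus strand, that of LAMA5 chr20:62367313-62367562 minus and that of FBN2 chr5:128538246-128538495 minus. For collagen IV the 126 bases that separate the starts of COL4A1 (minus strand, 110307157) and COL4A2 (plus strand, 110307284) are printed in the COL4A2 direction, chr13:110307158-110307283.
FN1: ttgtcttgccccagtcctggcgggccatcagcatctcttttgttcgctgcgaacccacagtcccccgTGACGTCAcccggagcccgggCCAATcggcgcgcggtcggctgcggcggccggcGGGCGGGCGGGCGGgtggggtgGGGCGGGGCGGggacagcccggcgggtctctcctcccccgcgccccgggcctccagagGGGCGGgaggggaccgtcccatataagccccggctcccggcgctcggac
COL4A1/COL4A2: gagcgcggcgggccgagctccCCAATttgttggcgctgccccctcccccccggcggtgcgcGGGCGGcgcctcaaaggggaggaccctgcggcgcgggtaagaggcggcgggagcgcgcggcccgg
LAMA5: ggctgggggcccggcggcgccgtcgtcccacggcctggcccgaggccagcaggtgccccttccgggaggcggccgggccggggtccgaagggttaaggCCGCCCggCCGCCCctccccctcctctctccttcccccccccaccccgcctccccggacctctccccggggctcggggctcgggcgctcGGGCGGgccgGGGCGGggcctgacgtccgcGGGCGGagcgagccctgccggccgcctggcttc
FBN2: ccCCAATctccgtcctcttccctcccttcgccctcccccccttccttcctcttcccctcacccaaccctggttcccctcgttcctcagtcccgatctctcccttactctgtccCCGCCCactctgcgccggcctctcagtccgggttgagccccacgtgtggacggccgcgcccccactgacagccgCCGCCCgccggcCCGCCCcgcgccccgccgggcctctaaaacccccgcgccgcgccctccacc
The FN1 stretch held 6 GGGCGG matches, which partly overlap each other, 1 CCAAT and 1 TGACGTCA. LAMA5 held 5 GGGCGG and no CCAAT, FBN2 held 3 GGGCGG and 1 CCAAT, and the collagen IV interval held 1 of each. GC content was 76.4% upstream of FN1, 82.8% upstream of LAMA5, 72.8% upstream of FBN2 and 80.2% between the collagen IV starts. Such matches are common. Over whole windows of 250 bases before to 50 after the start, GGGCGG was in 77.1% of the 35 windows of tested matrix genes and 66.3% of the 14859 windows of all tested genes. CCAAT was in 34.3% and 34.8%, TATAAA in 8.57% and 5.95%, and TGANTCA in 2.86% and 5.16%. TGACGTCA, searched for after the FN1 window had been read, was in 2.86% and 2.82%. The 35 windows cover 29 of the 38 tested matrix genes, some of them more than once. Among those 29, FN1 was the only gene with TGACGTCA.

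FN1 (chromosome 2, 216225163 to 216300796 on GRCh37, minus strand) stood far above every other matrix gene. Its level was 13498 and 13282 CPM at 4 h and 17529.9 and 16857 CPM at 8 h. Both 8 h libraries were above both 4 h libraries, and the rise was 1.28-fold (log2FC 0.36, standard error 0.06, edgeR adjusted p = 6.48e-05). After the correction for the trend with level the log2FC was 0.11 and the call was lost (edgeR adjusted p = 0.158). The 43 genes together held 2.68% and 2.62% of the counts in the 4 h libraries, against 3.04% and 3.0% in those of 8 h. FN1 made up 52.1% to 55.9% of those counts in a library. Without FN1 the share was 1.29% and 1.25% at 4 h, against 1.34% and 1.39% at 8 h, so the times did not overlap in either sum. An exact permutation test of 2 libraries against 2 cannot give a p below 0.33.

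Of the matricellular genes, whose products sit in the matrix and modulate adhesion, TNC was higher, and SPARC and TGFBI were not called. TNC, which encodes the hexameric glycoprotein tenascin-C, had 73.5 and 73.8 CPM at 4 h and 101 and 111 CPM at 8 h. The times did not overlap and TNC rose 1.44-fold (log2FC 0.52, standard error 0.09, edgeR adjusted p = 0.000121). SPARC, which encodes a collagen-binding calcium protein, had 2123 and 2105 CPM at 4 h and 1939 and 1889.5 CPM at 8 h. Both 8 h libraries were below, but the log2FC of -0.14 did not pass (edgeR adjusted p = 0.0821), while it did with library size alone (-0.25, adjusted p = 0.00409), with the trend correction (-0.35, adjusted p = 0.000255) and without 8 h replicate 1 (-0.16, adjusted p = 0.0471). TGFBI, which links collagens to integrins, had a log2FC of 0.17 that did not pass (edgeR adjusted p = 0.0653), and passed without 8 h replicate 1 (0.22, adjusted p = 0.0210). The ratio of SPARC to other transcripts within a library needs no scaling. BGN counts per SPARC count were 0.0311 in each 4 h library, against 0.0467 and 0.0509 at 8 h.

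**Figure D3:**
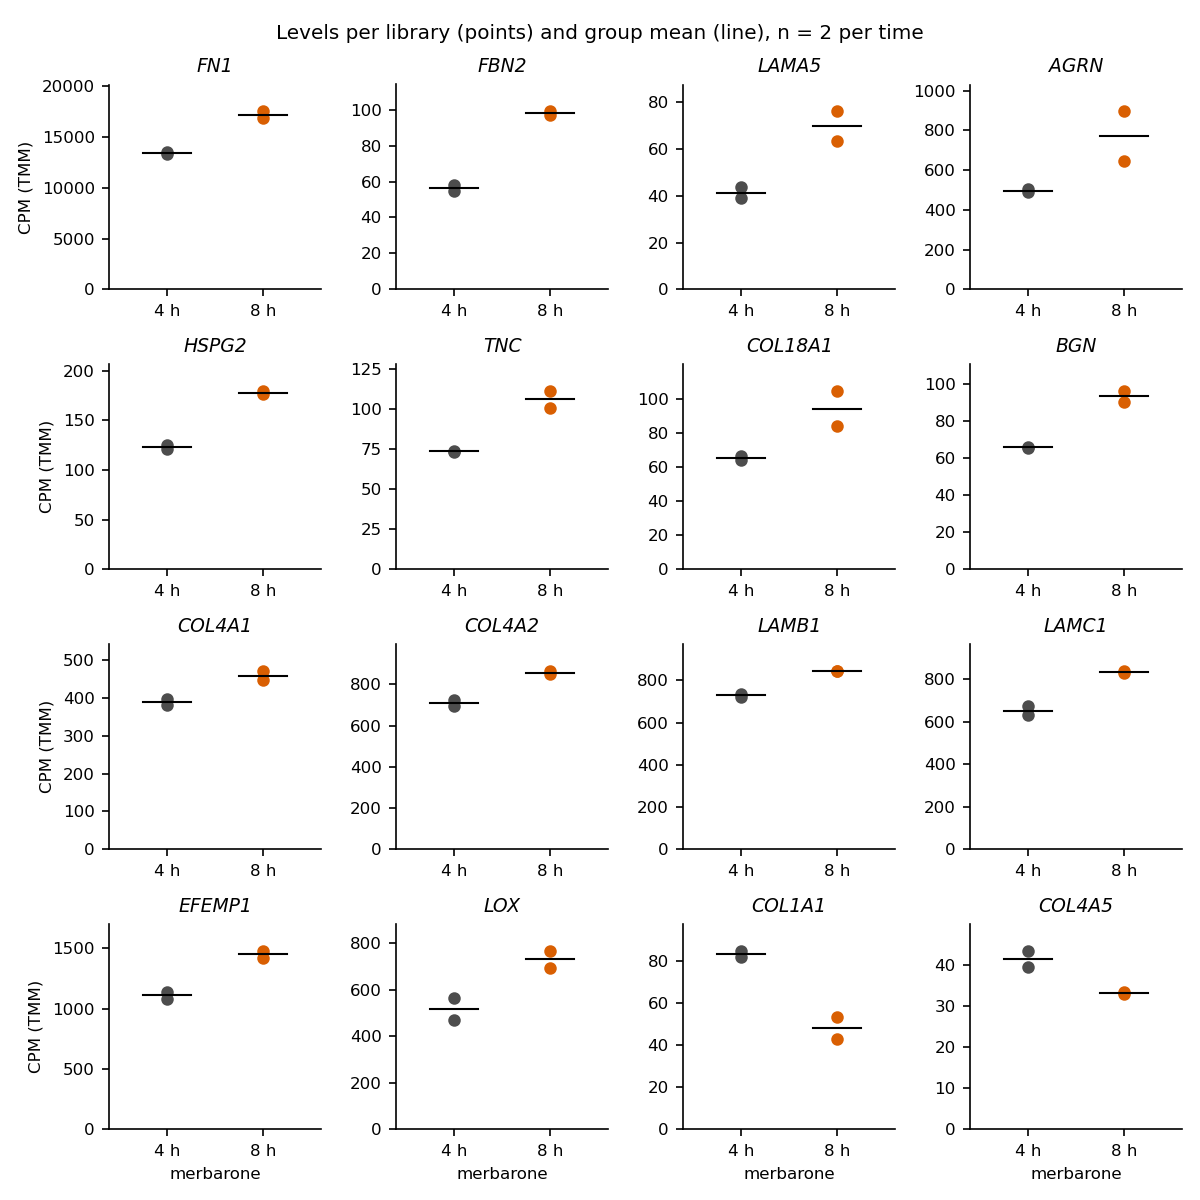
Level in CPM after TMM normalization of 16 matrix genes in each library (points, n = 2 per time) with the group mean as a line, every axis starting at 0. The 8 h points lie above the 4 h points in 14 panels and below them in the panels of COL1A1 and COL4A5. Only genes called by edgeR are drawn, so the separation of the times follows in part from that choice. Matrix genes not called, some with overlapping times, are left out.

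Collagen I, the main fibrillar collagen of connective tissue, is a helix of COL1A1 and COL1A2 chains. COL1A1 (chromosome 17, 48261462 to 48278993, minus strand) had 82.1 and 85.0 CPM at 4 h and 42.8 and 53.7 CPM at 8 h. The times were well apart, and its fall was the largest among the matrix genes (log2FC -0.80, standard error 0.11, edgeR adjusted p = 9.43e-06). Without 1 library in turn its log2FC ran from -0.96 to -0.64. COL1A1 fell while FN1 rose, and COL1A1 counts per FN1 count were 0.00608 and 0.00640 at 4 h, against 0.00244 and 0.00318 at 8 h. Its partner COL1A2 was close to absent, with 0 and 1 counts at 4 h, against 0 and 2 at 8 h. Over the 4 libraries COL1A2 gave 3 of 2594 collagen I counts, or 0.116% (exact 95% binomial interval 0.0239% to 0.338%, for counting error only).

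A similar gap between partner chains was seen in collagens V and VI. COL5A2 (chromosome 2, 189896624 to 190090038), a chain of the collagen that starts fibril assembly, had 1109 to 1483 counts per library, against 2 counts of COL5A1 in all 4 libraries together. COL5A1 was thus 0.0366% of their sum (exact 95% interval 0.00443% to 0.132%). COL6A1, of the beaded collagen VI filaments, had 262 to 286 counts per library, COL6A3 had 54 to 74, and COL6A2 had 3 counts in all. COL6A2 was 0.277% of the sum of COL6A1 and COL6A2 (exact 95% interval 0.0572% to 0.808%). In each of these collagens at least 1 chain was at or under the floor of 3 counts in every library, which equals 0.281 to 0.389 CPM. The cause of these low counts was not tested. The share of read starts that keep a read of 75 bases inside 1 exon was 40.2% for COL1A2, 53.3% for COL5A1 and 56.0% for COL6A2, beside 47.7% for COL1A1, 53.3% for COL5A2 and 56.4% for COL6A1.

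**Figure D4:**
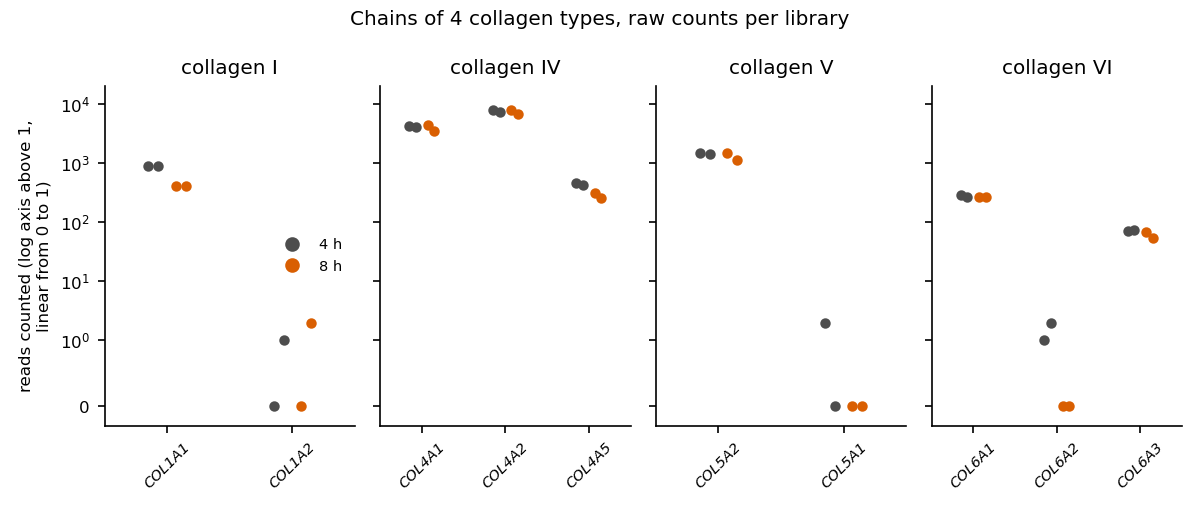
Reads counted per library on the chains of collagens I, IV, V and VI at 4 h (grey) and 8 h (orange), on an axis that is logarithmic above 1 and linear from 0 to 1. COL1A2, COL5A1 and COL6A2 lie between 0 and 2 counts in every library, while COL1A1, COL5A2 and COL6A1 have 262 or more.

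The remaining collagens outside basement membranes mostly did not pass. COL12A1, which encodes a collagen that decorates fibrils, had 565 and 540.0 CPM at 4 h and 684 and 726 CPM at 8 h. It rose 1.28-fold with no overlap of the times (log2FC 0.35, standard error 0.07, edgeR adjusted p = 0.000616). After the trend correction its log2FC was 0.18 (edgeR adjusted p = 0.0498). COL3A1 rested on 0.567 to 1.22 CPM, and its log2FC of 0.16 had a standard error of 0.55. Values that did not pass were 0.12 for COL5A2, 0.26 for COL6A1, 0.07 for COL6A3, 0.06 for COL8A1 and -0.20 for COL7A1, the chain of the anchoring fibrils under epithelia. COL7A1 was the collagen least visible to these reads, since 75 of its 119 exons are shorter than a read. COL6A1 passed without 8 h replicate 1 (0.39, edgeR adjusted p = 0.0316).

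The 4 basement membrane collagens among the matrix genes were all called, 3 upward and 1 downward. COL4A3 and COL4A4, collagen IV chains outside the chosen genes, were not called (log2FC 0.38 and 0.10, edgeR adjusted p = 0.0919 and 0.436). COL4A1 (chromosome 13, 110801310 to 110959504, minus strand on GRCh37) had 398 and 381 CPM at 4 h and 471 and 448 CPM at 8 h. COL4A2 (110958159 to 111165556, plus strand) had 724 and 695 CPM at 4 h and 849.8 and 865 CPM at 8 h. Neither pair of times overlapped, and the rises were 1.18-fold for COL4A1 (log2FC 0.24, edgeR adjusted p = 0.0135) and 1.21-fold for COL4A2 (log2FC 0.27, edgeR adjusted p = 0.00341). In proportion to each other the pair overlapped between the times, with 1.82 COL4A2 counts per COL4A1 count in each 4 h library, against 1.80 and 1.93 at 8 h.

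COL4A5, an X-linked collagen IV chain used by basement membranes of kidney, ear and eye, moved the other way, with 43.3 and 39.4 CPM at 4 h and 33.4 and 32.8 CPM at 8 h. It fell without overlap (log2FC -0.32, standard error 0.11, edgeR adjusted p = 0.0300), and COL4A5 counts per COL4A1 count were 0.109 and 0.103 at 4 h, against 0.0709 and 0.0732 at 8 h. That call was lost in DESeq2 (adjusted p = 0.129), without 4 h replicate 1 (-0.27, edgeR adjusted p = 0.206), without 4 h replicate 2 (-0.39, adjusted p = 0.0553) and without 8 h replicate 2 (-0.31, adjusted p = 0.0635). COL4A1 and COL4A2 were not called with library size alone (0.13 and 0.17) or with the trend correction (0.08 and 0.10). COL4A1 also lost its call without 4 h replicate 1 (0.26, edgeR adjusted p = 0.0808) or 2 (0.20, adjusted p = 0.167), and COL4A2 without 4 h replicate 2 (0.24, adjusted p = 0.0867).

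COL18A1, whose product carries the endostatin domain, had 66.5 and 64.1 CPM at 4 h and 83.6 and 104 CPM at 8 h. The 8 h libraries were spread but both higher, and COL18A1 rose 1.44-fold (log2FC 0.52, standard error 0.10, edgeR adjusted p = 0.000508). It shares 1563 exonic bases with SLC19A1 on the opposite strand, which had 189 and 220 counts at 4 h but 108 and 117 at 8 h, against 678 to 805 for COL18A1. The sources used here do not state whether the counting used strand, so counts of such overlapping genes are uncertain.

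Laminins are trimers of an alpha, a beta and a gamma chain, and 5 of the 6 chains tested were higher. LAMA5 (chromosome 20, 60883011 to 60942368, minus strand), the alpha chain typical of mature epithelial basement membranes, had 43.7 and 38.9 CPM at 4 h and 63.5 and 76.2 CPM at 8 h. Its times were clearly apart and it rose 1.69-fold (log2FC 0.75, standard error 0.11, edgeR adjusted p = 2.77e-05). It shares 244 exonic bases with ADRM1 on the opposite strand, which had 1029 to 1225 counts. LAMB1 and LAMC1, the common beta and gamma chains, were much more abundant. LAMB1 had 724 and 734 CPM at 4 h and 844 CPM in both 8 h libraries. LAMC1 had 674 and 632 CPM at 4 h and 839.7 and 829.7 CPM at 8 h. Neither overlapped, and the log2FC was 0.21 for LAMB1 (edgeR adjusted p = 0.0174) and 0.35 for LAMC1 (edgeR adjusted p = 0.000484).

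Within a library, LAMB1 counts per LAMC1 count were 1.07 and 1.16 at 4 h, against 1.01 and 1.02 at 8 h. The proportion of the alpha chains differed between the times, with 0.199 and 0.189 LAMA5 counts per LAMA4 count at 4 h and 0.250 and 0.298 at 8 h. LAMA4, the alpha chain of vessels and mesenchyme, rose by a log2FC of 0.26 and LAMB2, a beta chain of eye, kidney and synapse, by 0.29 (edgeR adjusted p = 0.0108 and 0.00383). LAMB3, of the epidermal anchoring laminin, had 15.6 and 13.8 CPM at 4 h and 15.4 and 22.2 CPM at 8 h. Its times overlapped and it did not pass (edgeR adjusted p = 0.144), though it did without 8 h replicate 1 (0.59, adjusted p = 0.00732). LAMA3, its alpha partner, had 14 and 9 counts at 4 h, against 7 and 4 at 8 h.

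The calls of the abundant laminin chains depended on scaling. LAMA4, LAMB1 and LAMB2 were not called with library size alone (0.15, 0.11 and 0.18) or after the trend correction (0.13, 0.03 and 0.14), and LAMC1 missed after the trend correction (0.18, edgeR adjusted p = 0.0505). LAMA4 also missed without 4 h replicate 1 (0.29) or 2 (0.21), LAMB1 without 4 h replicate 1 (0.19) or 2 (0.22), and LAMB2 without 4 h replicate 2 (0.26). LAMA5 passed throughout, with a lowest log2FC of 0.54.

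Of the proteins that link laminin to collagen IV, the heparan sulfate proteoglycans rose and the nidogens did not pass. HSPG2 (chromosome 1, 22148737 to 22263803, minus strand), which encodes perlecan, had 125 and 121 CPM at 4 h and 176 and 179 CPM at 8 h. The replicates were close and the times apart, a rise of 1.44-fold (log2FC 0.53, standard error 0.08, edgeR adjusted p = 3.37e-05). AGRN (chromosome 1, 955500 to 991498, plus strand), which encodes agrin, the organizer of acetylcholine receptors at the neuromuscular junction, had 503 and 488 CPM at 4 h and 645 and 896 CPM at 8 h. Both 8 h libraries were above both 4 h libraries but far from each other. The log2FC of 0.64 (standard error 0.10, edgeR adjusted p = 7.96e-05) became 0.38 without 8 h replicate 2 and 0.85 without 8 h replicate 1. In DESeq2 the AGRN log2FC was also 0.64, with a wider standard error of 0.24 (DESeq2 adjusted p = 0.0280). NID1 had a log2FC of 0.19 and NID2 of 0.21 (edgeR adjusted p = 0.105 and 0.117), each with the 8 h libraries above. NID2 shares 1909 exonic bases with RTRAF on the opposite strand, which had 1090 to 1294 counts against 430 to 544 for NID2.

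Among microfibril and elastic fibre genes, FBN2 (chromosome 5, 127593601 to 127994878, minus strand) had the largest rise of the 38. FBN2 encodes the fibrillin prominent in development, and it had 57.9 and 54.9 CPM at 4 h and 99.1 and 96.9 CPM at 8 h. The replicates were tight and the rise was 1.74-fold (log2FC 0.80, standard error 0.09, edgeR adjusted p = 1.35e-06). FBN1, the fibrillin of adult tissue, had a log2FC of 0.14 that did not pass (edgeR adjusted p = 0.142). FBN2 counts per FBN1 count were 0.0770 and 0.0817 at 4 h, against 0.129 and 0.122 at 8 h. EFEMP1, which encodes fibulin-3, a glycoprotein of the membrane under the pigment epithelium, had 1141 and 1083 CPM at 4 h and 1419.9 and 1478 CPM at 8 h. The times did not overlap and it rose 1.3-fold (log2FC 0.38, standard error 0.07, edgeR adjusted p = 0.000166), a log2FC that became 0.19 after the trend correction (adjusted p = 0.0294). FBLN5 stayed between 5.20 and 5.83 CPM in all 4 libraries, with overlapping times. FBLN1 had 0 or 1 count in each library.

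The lysyl oxidases, copper enzymes that crosslink collagen and elastin, differed from each other. LOX had 564 and 470.1 CPM at 4 h and 693 and 766 CPM at 8 h. It rose 1.41-fold without overlap (log2FC 0.50, standard error 0.08, edgeR adjusted p = 0.000119), and its log2FC was 0.33 after the trend correction. LOXL2, at 554 to 577 CPM, overlapped between the times with a log2FC of 0.01, and LOX counts per LOXL2 count were 0.977 and 0.849 at 4 h, against 1.21 and 1.35 at 8 h. LOXL1 had 280.3 and 282 CPM at 4 h and 249 and 407 CPM at 8 h, on either side of the 4 h values. Its log2FC of 0.22 (edgeR adjusted p = 0.209) was 0.53 without 8 h replicate 1 (adjusted p = 7.61e-09) and -0.17 without 8 h replicate 2 (adjusted p = 0.0916). LOXL1-AS1, which shares 335 exonic bases with it on the opposite strand, had 299 counts in each 4 h library, against 190 and 155 at 8 h.

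Lysyl hydroxylases act on collagen in the endoplasmic reticulum before secretion, and 2 of the 3 were higher. PLOD1 had 329.7 and 346 CPM at 4 h and 421 and 413 CPM at 8 h. PLOD3 had 101 CPM in both 4 h libraries and 122 and 138 CPM at 8 h. Both rose without overlap, PLOD1 by a log2FC of 0.30 (edgeR adjusted p = 0.00243) and PLOD3 by 0.36 (edgeR adjusted p = 0.00238). PLOD1 was not called after the trend correction (0.15) or without 4 h replicate 1 (0.26, edgeR adjusted p = 0.0802). PLOD2, which modifies the telopeptides of collagen, had a log2FC of 0.16 that did not pass (edgeR adjusted p = 0.103).

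The small leucine-rich proteoglycans bind collagen fibrils and growth factors. BGN (chromosome X, 152760438 to 152775004, plus strand), which encodes biglycan, had 66.1 and 65.4 CPM at 4 h and 90.5 and 96.2 CPM at 8 h. It rose 1.42-fold without overlap (log2FC 0.50, standard error 0.09, edgeR adjusted p = 0.000189). DCN, which encodes the related decorin, had 3.56 and 3.59 CPM at 4 h and 2.24 and 4.93 CPM at 8 h, and those 8 h values lie on both sides of the 4 h values.

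Levels were compared between genes per kilobase of the canonical transcript. FN1 led with a mean of 1823 CPM per kilobase over the 4 libraries, followed by SPARC at 584 and EFEMP1 at 473. The next were COL8A1 at 165, LOXL2 at 152 and LAMB1 at 139 CPM per kilobase. Over the libraries COL8A1 ranged from 161 to 169.7, above LOXL2 at 149 to 155, whose range met that of LAMB1 at 128 to 149. At the low end were COL6A3 at 0.667, DCN at 0.522 and COL3A1 at 0.173 CPM per kilobase. The measured level of COL1A1 was 11.1 CPM per kilobase, below COL4A2 at 122 and COL4A1 at 64.9. Bowtie aligned reads without splitting them at splice junctions, and many collagen exons are short. The share of read starts that keep a whole read in 1 exon had a median of 51.9% over the 12 tested collagens, 63.6% over the other 26 matrix genes and 80.7% over 12241 genes. Per kilobase of such starts, FN1 was at 3067, COL4A2 at 243, COL4A1 at 135, COL1A1 at 23.7 and COL7A1 at 17.7, against 4.76 for COL7A1 per kilobase of transcript. COL4A2 moved from place 11 to 5 and COL8A1 from 4 to 9 in the order of the 38. The mapping was the same in every library.

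**Figure D5:**
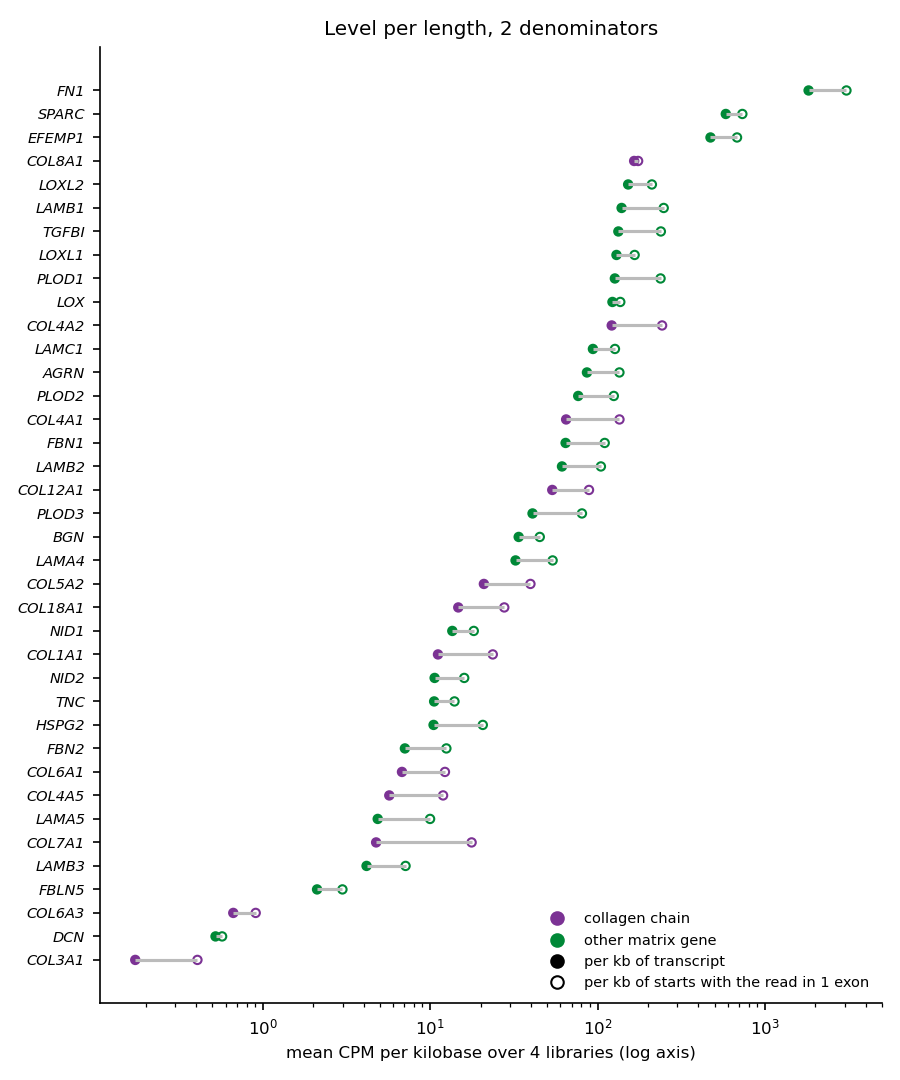
Mean CPM per kilobase over the 4 libraries on a log axis, per kilobase of the canonical transcript (filled) and per kilobase of read starts that keep the read in 1 exon (open), collagens in purple and other matrix genes in green. FN1 is highest by either measure, at 1823 and 3067, and the gap between the points is widest for COL7A1, at 4.76 and 17.7.

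Gene span and transcript GC content, which played no part in the choice of genes, were set against the change. Mean CPM was too, although the filter on CPM set which genes were tested. Over the 38 matrix genes, which share the same 4 libraries and are not independent replicates, Spearman's rho of log2FC was -0.04 with gene span, 0.25 with transcript GC content and 0.19 with mean CPM. Over all genes it was 0.00, 0.15 and 0.24 (n = 12241, 12241 and 12559). Long and short genes were thus found on both sides, since FBN2 spans 280.3 kb and COL4A5 258 kb while COL1A1 spans 17.5 kb and BGN 14.6 kb. GC content also went with the difference between replicates, replicate 2 minus replicate 1. The rho was 0.34 at 8 h and 0.23 at 4 h over the matrix genes, and 0.27 and 0.33 over all genes. The part of GC content in the changes was examined by correcting each library for it, an alternative chosen after seeing the data. That correction gave 23 higher and 3 lower matrix genes and 22.5% of all genes higher. All 19 and both of the original calls were among them. Values were smaller for LAMA5 (0.54), AGRN (0.39), HSPG2 (0.36), COL18A1 (0.29) and COL4A2 (0.16), among others. They were larger for LOX (0.56) and EFEMP1 (0.44), among others. The calls gained were FBN1 (0.18), NID1 (0.20), PLOD2 (0.23) and TGFBI (0.18) upward and COL7A1 (-0.37) downward.

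Genes that serve the matrix were counted in lists chosen by function. Of 28 tested genes for folding, export and processing of procollagen, 9 were higher and 1 lower, with a median log2FC of 0.17. Of all genes, as given above, 19.9% were higher and 18.8% lower. The count was 5 higher and 3 lower with library size alone and 4 and 2 after the trend correction. It was 3 higher and 0 lower without 4 h replicate 1, and 6 and 0 without 4 h replicate 2. Among the 9 called, the largest rises were those of TMEM38B, an endoplasmic reticulum ion channel (0.64), MIA3, the export receptor TANGO1 (0.52), and CTSK, a collagen-degrading protease (0.36), while SEC23A, a subunit of the vesicle coat, fell (-0.29). Others that rose were CRTAP (0.33) and P3H1 (0.34), which hydroxylate collagen prolines together, and P4HB (0.23).

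Of 22 tested matrix receptors, 9 were higher and 2 lower, with a median of 0.17. Of all genes 19.9% were higher and 18.8% lower, and of those with a mean of at least 100 CPM 40.2% and 14.8%. The receptor count was 5 higher and 3 lower with library size alone and 4 and 4 after the trend correction. It was 5 higher and 0 lower without 4 h replicate 1, and 5 and 1 without 4 h replicate 2. DDR2, a receptor tyrosine kinase for fibrillar collagen, had 140.3 and 154 CPM at 4 h and 239 and 247 CPM at 8 h and rose by a log2FC of 0.72 (edgeR adjusted p = 9.95e-07). ITGB4, the beta chain of the hemidesmosomal laminin receptor, rose by 0.57 and ITGA11, an alpha chain of a collagen receptor, by 0.38. ITGA4 (-0.46), whose product binds fibronectin and VCAM1, and DAG1 (-0.21), the laminin receptor dystroglycan, were lower.

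Of 20 tested other matrix glycoproteins, 5 were higher and 2 lower, with a median of 0.21. Of all genes 19.9% were higher and 18.8% lower. The glycoprotein count was 4 higher and 3 lower with library size alone and 6 and 1 after the trend correction. LTBP3 (0.48) and LTBP4 (0.47), which hold latent TGF-beta in the matrix, and CRELD1 (0.45) had the largest rises among the 5 called. THBS1, which encodes thrombospondin-1, had 2187 and 1905 CPM at 4 h and 1174 and 1385 CPM at 8 h and fell by a log2FC of -0.68 (edgeR adjusted p = 2.9e-06), and PRELP fell by -0.47. Of 34 other collagen and laminin genes listed, 12 passed the filter and 10 had no count in any library. COL8A2 was higher (0.46, edgeR adjusted p = 0.000416). Over these 4 lists, 24 of 82 tested genes were higher and 6 lower, and the total of 30 became 14 without 4 h replicate 1 and 17 without 4 h replicate 2.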

How the data were processed

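RNA-Seq counts were available for 4 libraries of serum-starved hTERT RPE-1 cells, 2 at 4 h and 2 at 8 h of 200 μM merbarone. The libraries were polyadenylated, stranded and read as 75-base single reads. The authors mapped them to hg19 with Bowtie (1.2.0 in the submitters' processing notes), kept reads with a unique position and deposited raw counts per gene. The annotation, counting tool and strand setting are not given in the sources used here. Unspliced mapping loses reads over exon junctions.

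Genes were kept where at least 2 libraries had a CPM over 1 and were tested on all 4 libraries with the quasi-likelihood test of edgeR 4.0.16 (R 4.3.3, TMM), with Benjamini-Hochberg adjustment over 12559 genes and a threshold of 0.05. CPM values carry TMM factors. Biological variation was estimated at 6.52%. Alternatives were Limma-Voom (limma 3.58.1), DESeq2 1.42.0, library size alone, RLE factors, a loess correction for each library's trend with gene level (mean log2-CPM), other filters, the replicate number as a block, each library left out and, added later, a correction for transcript GC content.

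The matrix genes and lists were chosen with earlier results of these data known. Values per library were planned for FN1, the chain pairs of collagens I and IV and of laminin, and genes past the threshold with a log2FC beyond 0.5. Those of other genes, the ratios other than between partner chains, and the motif TGACGTCA were added after values were seen. In the other lists up to 3 genes each way were planned, and CRTAP, P3H1 and P4HB were added. Symbols came from RefSeq (23308 of 23459 genes) and GRCh37 positions from GENCODE (22209). With 2 libraries per time, p-values measure the spread between these cultures only. Some results are not reported here.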

Additional observations from a re-analysis of the deposited data

How the results depend on the processing

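The count of 19 higher matrix genes stayed within 1.5 times under 8 of 9 alternatives and became 11 once the trend with mean log2-CPM was corrected. The 2 lower genes became 1 in DESeq2 and 4 with library size alone, where COL7A1 and SPARC were added. The median log2FC of 0.25 became 0.14 with library size alone, which moved the median of all genes to -0.11, and 0.15 with the trend correction. The rise in the share of counts, 0.366 percentage points, was 0.576 of the TMM effective library size. With 1 library left out in turn, 14 to 23 genes were higher and 1 to 3 lower, the median ran from 0.21 to 0.29, the calls in the other lists from 14 to 31 and the share from 0.337 to 0.396, a lone library being assumed to vary like the other time. No matrix gene passed 2-fold under any of these.

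None of the genes whose sign turned had passed with edgeR and TMM. With library size alone they were FBLN5 (-0.089), COL6A3 (-0.039), COL8A1 (-0.042) and LOXL2 (-0.10), and with the trend correction COL8A1 (-0.12), DCN (0.15), FBN1 (-0.039) and LOXL2 (-0.16). LOXL2 was -0.0039 with CPM above 1 in all 4 libraries, and the GC correction gave DCN 0.030, LOXL1 -0.025 and LOXL2 -0.034. With a library left out, FBLN5 ran from -0.064 to 0.085, COL3A1 from -0.29 to 0.38, LOXL2 from -0.027 to 0.023, DCN from -0.67 to 0.46 and LOXL1 from -0.17 to 0.53. The cause was not tested.

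With the replicate number as a block, 21 genes were higher, LOXL1 (0.18) and TGFBI (0.17) being added, and 2 lower. The labels do not say that a number marks a shared batch, so the numbers were not taken as pairs. Deviations of same-numbered libraries correlated at 0.05 over all genes and at 0.11 over genes with a mean count of at least 100. As given above, the difference between replicates went with GC content at both times. Whether a number marks a shared batch was not tested. Depth limits genes near the floor of 3 counts, 0.281 to 0.389 CPM.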
